A study of Mus musculus with 6 samples.

Results

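The 86 loci described here are predicted mouse genes, named with a Gm number or a Rik suffix, whose estimated read counts reached the minimum of 20 in every control library and stayed below 0.5 in every library of embryos exposed to ethylparaben. They were chosen by these measured values from 55549 rows, of which 30693 were predicted loci, and 13 well-known loci of the 2-cell stage were left out by name. The libraries come from early 2-cell mouse embryos and were made with Smart-seq2, in which RNA with a poly(A) tail is copied from oligo-dT and the cDNA is enlarged by PCR without marking strand. The 3 control libraries had no agent named in the labels, and for the 3 others zygotes were placed from 4 h after fertilization in medium with 40 uM ethylparaben (EtP), a preservative ester, after which most embryos arrested as early 2-cell embryos. No strain, sex, collection hour, embryo number per library or separate culture is given in the labels, so spread between libraries may be technical, and fewer cells and less RNA per cell cannot be told apart.

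In the mouse, transcription from the embryo's own genome starts in earnest at the 2-cell stage, when eggs' stored RNA is being degraded. Part of that first wave comes from recently duplicated gene families and from long terminal repeats of an endogenous retroviral family, MERVL, which serve as promoters and first exons of chimeric transcripts. Predicted loci are gene models from genome annotation, many of them long noncoding RNAs, extra family copies or processed pseudogenes, which are copies of a messenger RNA inserted back into the genome.

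Among the 86 members, 84 were at exactly 0 in all EtP libraries. Gm47357 (0.35) and Gm47985 (0.10) had a fraction of a count in EtP replicate 1. Together the members took 0.0965% to 0.138% of control counts. Of the 1705 predicted loci at 20 or more counts in every control library, 90 (5.28%) were below 0.5 in every EtP library. Of these 90, 4 were among the loci left out by name. Among 10054 other genes at 20 or more counts in every control library, 48 (0.48%) were below 0.5. The classes were not matched for control level or for reads shared between copies. In the opposite direction, with the groups exchanged, there was no predicted locus among 1111 and no other gene among 8635. Fewer rows of any kind were detected in EtP. Rows with at least 1 count numbered 25861, 25976 and 26004 in control replicates 1 to 3 and 19613, 19244 and 19573 in EtP replicates 1 to 3. The part of this drop in the one-way absence was not tested. With the EtP limit raised to 1.5, 3.5 and 10.5 counts, 134, 186 and 307 predicted loci met the rule. Across all genes, 14373 were tested with edgeR and 18.1% were lower and 12.5% higher in EtP at an adjusted p below 0.05 (2601 and 1798 genes). Scaling by library size alone moved these to 7617 lower and 545 higher, and RLE scaling to 2278 and 2065. DESeq2, which tested 32958 genes, called 2246 lower and 2257 higher. There were 1096 higher and 1659 lower genes without EtP replicate 1, 1729 lower without EtP replicate 2 and 1731 lower without EtP replicate 3. The rule used the same contrast, so nothing is read from the members' own differences.

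A sequence shared by many members was a leader, 115 bases in its most common form, at the 5′ end of the transcript. It was present within 100 bases of the start in 23 of 86 members (26.7%), on 11 chromosomes, counting matches of at least 80 bases and 80% identity that link members to each other. At 90% identity 19 members were linked. Among the 1619 other predicted loci at 20 or more counts in every control library, 53 (3.3%) carried it, and among all 55536 annotated genes 204 (0.37%) did. The leader was defined as the largest group of matching first bases among the members themselves. The share in members is therefore raised by construction, and the shares are a description only. The first exons of 6 members are shown because they are nearly the same sequence on 6 chromosomes, read from GENCODE M21 transcripts (build GRCm38, mm10) 5′ to 3′. Capitals mark bases unlike the most common base at that place among the 10 members whose first exon is exactly 115 bases.
Gm50331: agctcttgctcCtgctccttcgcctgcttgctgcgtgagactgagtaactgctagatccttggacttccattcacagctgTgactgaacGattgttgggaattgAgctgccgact
Gm48829: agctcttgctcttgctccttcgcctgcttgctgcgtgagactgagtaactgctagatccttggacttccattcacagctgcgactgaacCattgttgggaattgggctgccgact
Gm47739: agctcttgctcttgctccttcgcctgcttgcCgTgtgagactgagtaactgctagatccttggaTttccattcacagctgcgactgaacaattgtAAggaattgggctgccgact
Gm14929: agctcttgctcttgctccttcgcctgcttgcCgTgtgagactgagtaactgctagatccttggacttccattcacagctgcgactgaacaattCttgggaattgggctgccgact
Gm33466: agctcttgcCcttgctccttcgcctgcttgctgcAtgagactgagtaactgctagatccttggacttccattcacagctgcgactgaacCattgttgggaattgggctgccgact
Gm10653: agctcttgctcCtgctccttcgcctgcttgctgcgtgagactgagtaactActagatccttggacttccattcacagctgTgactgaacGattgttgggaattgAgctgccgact

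These exons lie at chr19:52303521-52303635 on the plus strand for Gm50331 and on the minus strand for the others: chr13:18645235-18645349 for Gm48829, chr10:53575642-53575756 for Gm47739, chrX:119749563-119749677 for Gm14929, chr3:157726294-157726408 for Gm33466 and chr9:62867886-62868000 for Gm10653. Each differed from the most common sequence at 1 to 5 of the 115 bases. In those 10 members the leader was spliced across an intron of 202 to 17084 bases. The joins below show the last 15 bases of the leader in capitals and the first 30 bases of the next exon in lower case, for 4 members with different second exons and 1 of the members that share one.
Gm14929: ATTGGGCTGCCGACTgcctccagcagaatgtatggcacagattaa
Gm33466: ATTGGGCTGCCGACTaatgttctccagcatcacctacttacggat
Gm47224: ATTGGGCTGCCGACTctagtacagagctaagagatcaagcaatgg
Gm10653: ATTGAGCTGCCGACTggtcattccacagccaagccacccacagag
Gm47739: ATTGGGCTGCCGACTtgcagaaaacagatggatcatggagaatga

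The second exon of Gm47739 recurred in Gm47357, Gm48829, Gm50210 and Gm50331, which like it are 2705 bases long, and in the longer Gm48799. All 6 joined the leader to the same place of 1 longer sequence. That sequence lies, on the opposite strand, inside the longest annotated transcript of Tmem72 (17152 bases), where 2 copies of a 494-base direct repeat (99.8% identical) bracket a unit of 6417 bases. Counted from the start of the first repeat copy, the leader of these 6 members lay at bases 302 to 416 and their second exon began at base 2822, ending at 5411 in 5 of them and at 6369 in Gm48799. In all, 23 members matched the unit at 90% identity or more over at least 50 bases, 18 of them with the leader and 5 without it, so that 28 members held one or the other and 58 held neither. Gm48271 and Gm44660 ran unspliced from the leader into the unit, Gm38947 and Gm7102 held its first bases at their 3′ end, and Gm49858, Gm45899 and Gm48113 lay inside it. Translated, the last 3 matched Fv1, a retrovirus restriction gene derived from an endogenous retroviral gag, at 46.4%, 48.7% and 47.9% identity. No repeat annotation was used, so the leader and the unit are not assigned to a repeat family here.

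**Figure D1:**
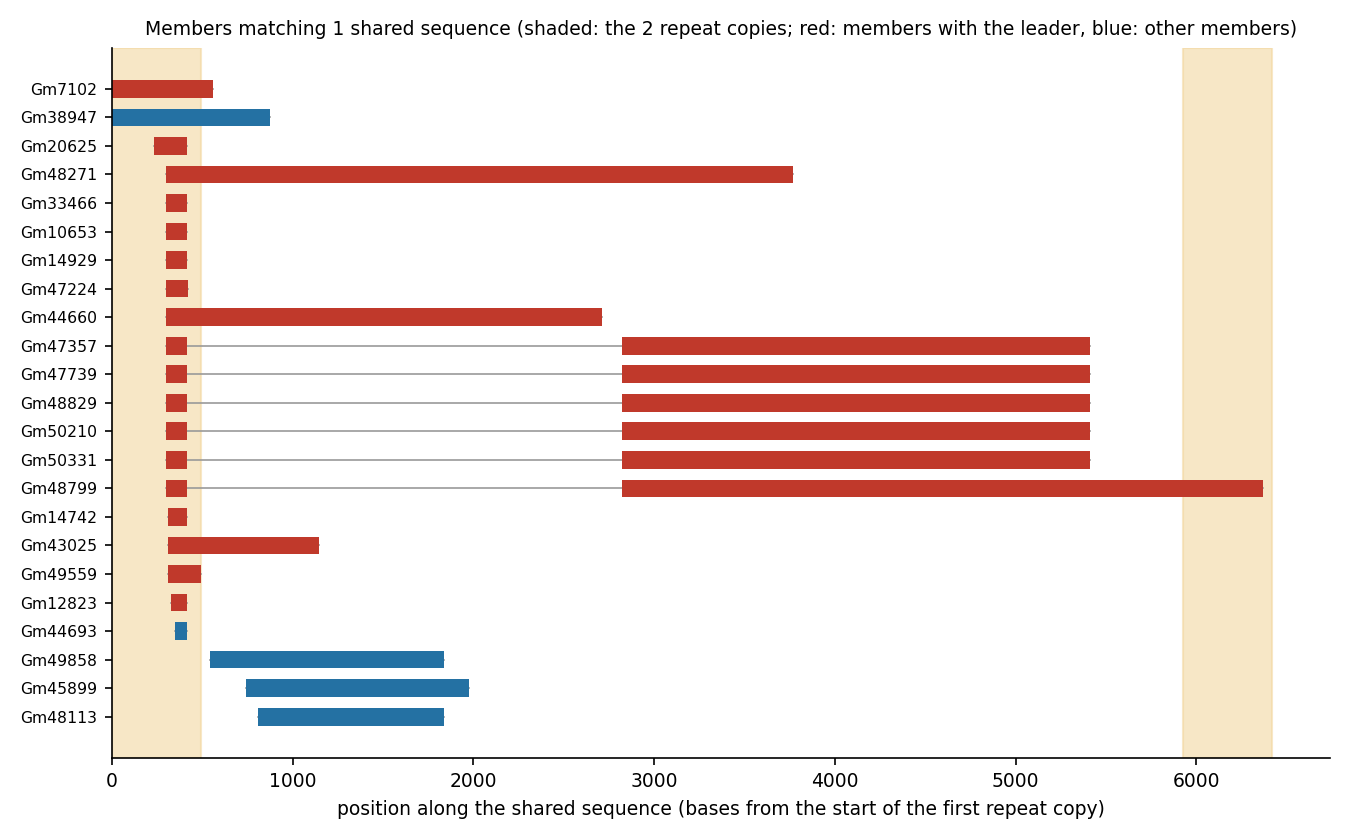
Each bar is the stretch of a member's transcript that matches the shared 6417-base unit (90% identity or more), placed by its position from the start of the first repeat copy; grey lines join stretches of 1 member, red members carry the leader and blue ones do not. Most red bars start at about base 302 in the first shaded repeat copy and 6 members resume at base 2822.

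In control libraries the leader members took 29.3% of all members' counts. The 2 most abundant were Gm48271, with expected counts of 575, 619.8 and 520.05 in control replicates 1 to 3, and Gm44660, with 344, 579 and 492. Both are TEC models, a provisional class of single-exon annotation, and both were at 0 in the 3 EtP libraries. Gm33466, a noncoding RNA on chromosome 3, had 445, 442 and 424 and was at 0 in EtP. Against a limit of 3 counts over the EtP group, levels were at least 353-fold lower for Gm48271, 291.3-fold for Gm44660 and 270-fold for Gm33466. The rule chose loci near 0 in EtP, so large folds were fixed in advance. The limit covers counting error only, not how reads were divided between near-identical loci. The noncoding RNA Gm14929 had whole counts only, 362, 237 and 174, in control and 0 in EtP.

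The members with the repeated second exon were lowest in control replicate 1. Gm47739 had 80 expected counts there against 249 and 278 in the other 2 controls, Gm50331 had 81 against 236 and 225, and Gm48829 had 121 against 206 and 261. Gm47357 (183, 341 and 274), Gm50210 (92, 162 and 149) and Gm48799 (159, 324 and 350) were also lowest in replicate 1. Each was at 0 in EtP apart from the fraction in Gm47357. Summed with the 14 near-identical loci of Gm47357, which are at least 98% identical over 80% of the shorter transcript and of like length, the level was 145 CPM (counts scaled by TMM-adjusted library size) in control and 0.488 CPM in EtP, a ratio of 297. The host transcript Tmem72, which holds the sequence on its opposite strand, had 2095, 3505 and 3103 expected counts in control and 1525, 1135 and 1829 in EtP (log2 fold change -0.27, SE 0.23, edgeR adjusted p = 0.396), and reads of the 2 strands cannot be told apart.

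Among the leader members with other bodies, Gm43025 (376, 289 and 204 in control), a TEC model inside the hair-cell gene Grxcr1 on the opposite strand, and Gm7102 (284, 314 and 226) were above most of the members with the repeated second exon in mean CPM. Gm7102 is annotated as protein-coding. Its translated transcript matched Mplkip at 89% identity over 127 residues and Rpia at 89% over 73. Shorter stretches matched other named genes, such as Ctf2 and Cmah, so no single relative is assigned. Gm4513 and Gm4565, whose translations match the Smok2 protein kinases at about 40.0%, have the same sequence and were given the same counts (92.4, 119 and 89.8). Gm8016, Gm48436 and Gm49064 on chromosome 13 carried a diverged leader and had 63.1 to 129 counts over the 3 controls. Gm47224, Gm49559, Gm12823, Gm10653, Gm20625 and Gm14742 had 22.5 to 107 counts. Each of these loci was at 0 in EtP, but Gm4513 summed with its 7 near-identical loci had 1020, 987 and 1131 counts in control and 78.7, 32.2 and 104.6 in EtP, a CPM ratio of 9. Of the 38 members with near-identical loci, 33 had a sum above 0 in EtP and 5 did not, and the ratio of control to EtP for the 33 ranged from 6.6 to 1830.5 (median 297). These ratios are not separate measurements, because copies of each other can share the same sum. Gm47357, Gm47739, Gm48829, Gm50210 and Gm50331 all had the same sum, with the ratio 297. Each sum also holds a member that the rule chose near 0 in EtP.

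The leader also occurred in 180 genes of the tables that are not members. Of these, 110 passed the filter on low counts, and 68 were lower and 8 higher in EtP (61.8% and 7.3%, against 18.1% and 12.5% of all genes), with a median log2 fold change of -2.64 against -0.19 over all genes. The 42 named protein-coding genes among them had 11 lower and 6 higher (26.2% and 14.3%), with a median of -0.36. The other 70 had too few reads: 22 were at 0 in all 6 libraries, 44 had a higher mean in control and 4 in EtP. Many of these 70, such as Gm22029 and Gm26475, are annotated as miRNA. The 41 tested genes whose annotated transcripts all begin with the leader had 36 lower and 0 higher, with a median of -6.28; 1 passed an unadjusted p of 0.05 upward. RLE scaling and library size alone also called 0 higher, whereas the replicate block and the fits without control replicate 1 or EtP replicate 3 called 1. With 72 such genes tested, DESeq2 called 0 higher and edgeR without a filter on low counts called 1. The 69 in which only some transcripts begin with it had 32 lower and 8 higher, with a median of -1.01. The leader was defined from members chosen near 0 in EtP, and a gene can pass the filter through the control group alone. Lower calls in these lists were therefore favoured in advance, and the shares over all genes are not a like comparison. These counts describe the lists and were not compared by a test.

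Among leader genes outside the rule, Gm47808 had 703, 1015 and 1004 expected counts in control and 0, 0 and 1 in EtP, just past the limit of the rule. AA414992 had 197, 85.5 and 284 in control and was at 0 in EtP. Gm4340, Gm21304, Gm20765 and Gm21312, which belong to the loci left out by name, had 1040.27 to 4554 counts in control and 0 to 4.48 in EtP. Higher in EtP were Gm3286 (log2 fold change 5.44, SE 0.61, adjusted p = 0.000138), Ppig, a cyclophilin linked to splicing (2.42, SE 0.22, 3.39e-05), Fbxo34, an F-box protein (1.58, SE 0.22, 0.000606), Gm16427 (1.13, SE 0.27, 0.0105), D5Ertd577e (1.12, SE 0.22, 0.00408) and Atf7ip, a chromatin factor (0.94, SE 0.21, 0.00818). In each of these 6 only some transcripts carry the leader, and gene-level counts do not separate them. The transporter gene Slc16a6, named after its values were seen, also carries it in some transcripts and fell from 132, 187 and 215 counts to 2, 2 and 3.

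**Figure D2:**
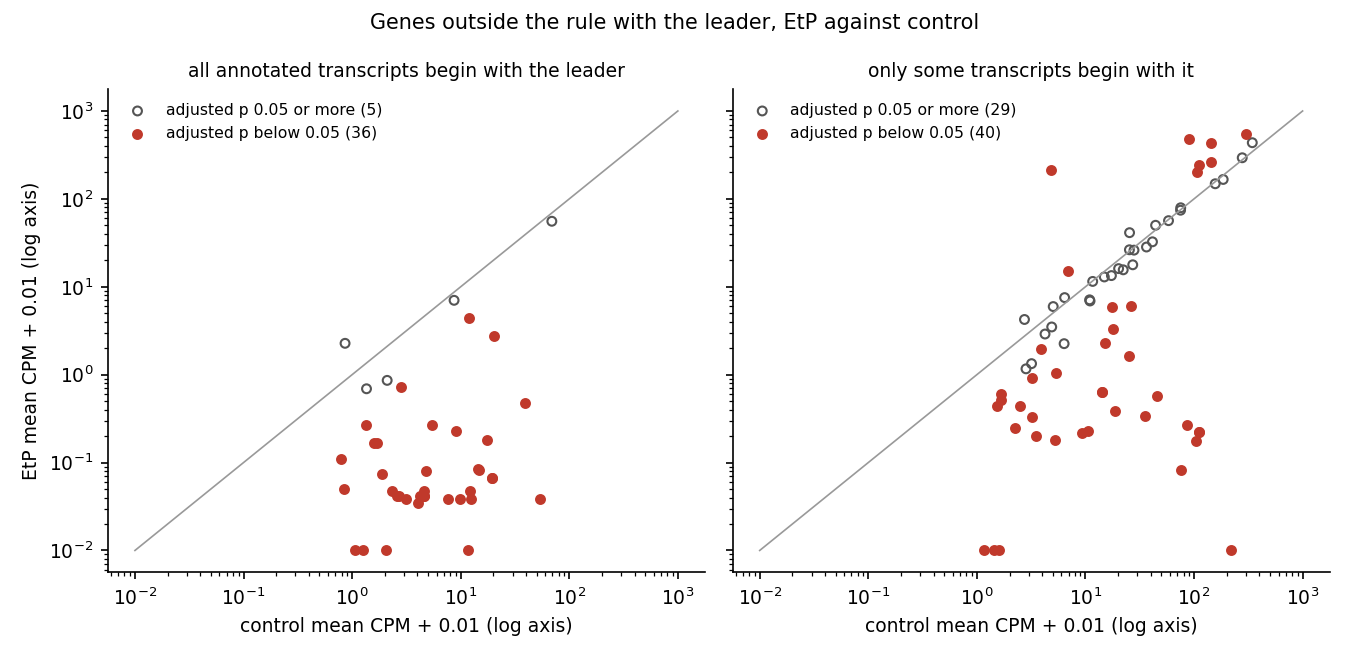
Mean CPM in control (x) and EtP (y), each plus 0.01 on log axes, of the 110 tested genes outside the rule that carry the leader; the line marks equal levels and filled points passed an adjusted p of 0.05. On the left, where all transcripts begin with the leader, 36 of 41 points are filled and lie below the line; on the right 40 of 69 are filled, 8 of them above it.

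The second large set was 33 members that resemble other members over at least 50% of the shorter transcript, without the leader. The PRAME-like loci on chromosome 5 form a cluster of the leucine-rich repeat family that is active in germ cells and early embryos. The protein-coding Gm7971 (chr5:95590599-95594875, minus strand) had the highest mean level of all members, 51.7 ± 9.21 CPM (SD, n = 3), from 772, 877 and 960 expected counts. Gm3147 had 583, 783 and 1112, Gm7978 had 379, 181 and 333, Gm10424 had 284, 189 and 335, and the pseudogenes Gm7663 and Gm3176 had 372, 205 and 305 and 122, 177 and 226. All were at 0 in EtP. Their zeros depend on how reads were divided between copies: Gm16429 was given exactly the control counts of Gm7971 but 5 counts in EtP replicate 3. Gm7971 with its 6 near-identical loci summed to 3761, 3935 and 4731 counts in control and 1.77, 5 and 8 in EtP, a ratio of 519.7 in CPM.

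Relatives of Alyref, an adaptor for messenger RNA export, were next in level. Gm4302 had 1300.02, 546 and 702 expected counts in control and Gm8723, close to it on chromosome 10 (chr10:100340836-100377279 for the pair), had 1091, 502 and 556, both at 0 in EtP. Here control replicate 1 was the highest, opposite to the members with the repeated second exon. Gm9458 on chromosome 1 had 46.2, 35.7 and 60.6. Alyref itself had 34, 38 and 49 counts in control and 5, 6 and 6 in EtP (log2 fold change -2.13, SE 0.43, adjusted p = 0.00454). Gm4340, left out by name, is 94.8% identical to Gm4302.

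Relatives of Eif1a, a translation initiation factor, lay on chromosome 12: Gm48388 (203, 157 and 125 counts in control), Gm5788 (110, 63.9 and 95.3), Gm21936, Gm21319, Gm2035 and Gm16368 (22.6 to 86.9). Per length Gm48388 was the most abundant member, at 168 ± 19.7 TPM (SD, n = 3) in control, but its model is only 213 bases long and is 99.5% identical to BB287469. Gm2035 with its 3 near-identical loci had 63.9 CPM in control and 0.0349 in EtP. Eif1a was lower too (98.3, 118 and 58.1 counts against 2, 1 and 7; log2 fold change -4.05, SE 0.52, adjusted p = 0.000323).

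Members of the Tdpoz family, proteins with TRAF and POZ domains, lay on chromosome 3. Gm10696 had 272, 366 and 520.2 counts in control, Gm4858 had 231, 241 and 243, and Gm9117, Gm5541 and Gm9141 had 27.6 to 82. On chromosome 11, Gm12621, Gm12625, Gm12613 and Gm12617, which resemble each other, lay in chr11:60591721-60693075. Gm12621 had the widest spread of any member, 154, 21.2 and 77.8 counts, a ratio of 8.27 between its highest and lowest control CPM, whereas Gm12617 had whole counts (59, 46 and 41). Gm16478 (132, 166 and 149), Gm21037 (173, 156 and 107) and Gm21035 (178, 88.4 and 138) lay on chromosome 7. Their translations matched Rbbp6, a ubiquitin ligase, at 81.4% to 82.2% identity over only 101 or 102 residues. Gm47985 (203, 151 and 247) and Gm47996 (94.1, 77 and 34.2) are neighbouring coding models on chromosome 1. The rest of the set was Gm47738, which runs antisense to Gm47739, and the 3 loci inside the shared unit.

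**Figure D3:**
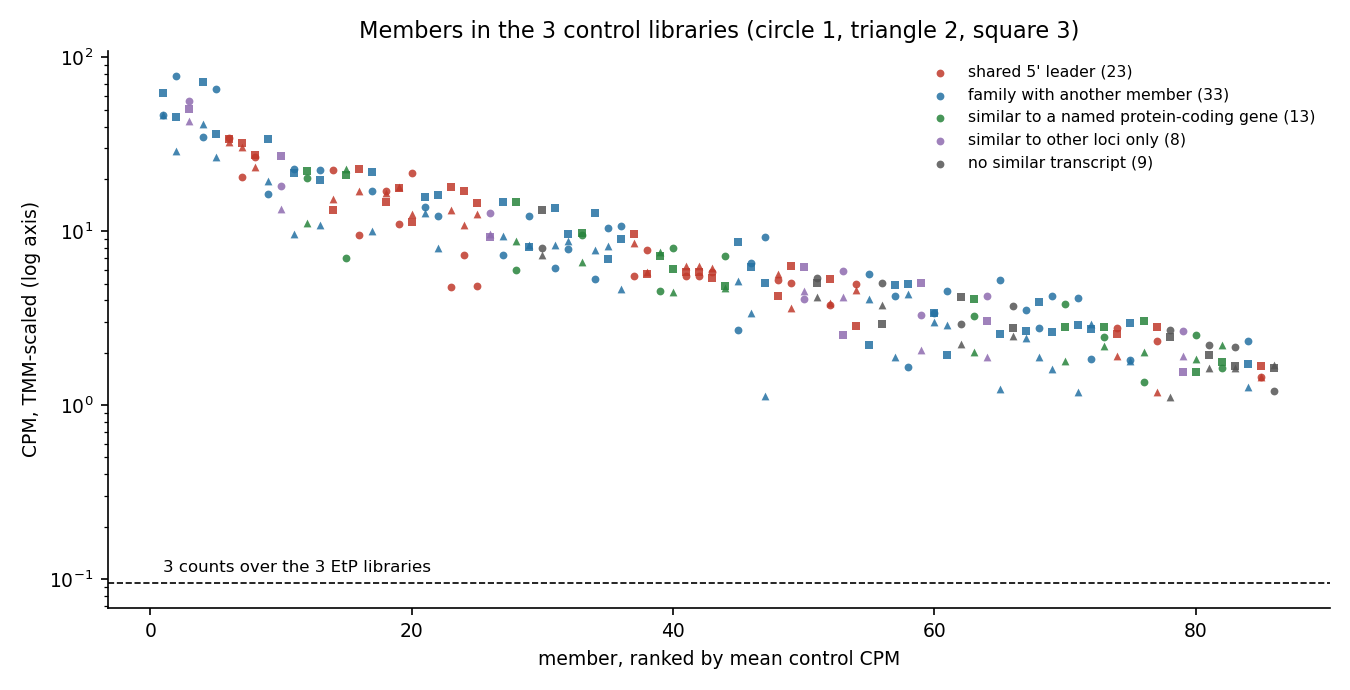
Each of the 86 members is a column, ranked by mean control CPM, with its value in control replicates 1 to 3 as a circle, triangle and square on a log axis; colours give the sequence class and the dashed line marks 3 counts over the EtP libraries. Every control value lies above the line, from Gm7971 on the left at a mean of 51.7 to Gm9586 on the right at 1.505, and the 3 controls are often apart by more than the step between neighbouring members.

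Another set of members resembles a named protein-coding gene. Gm9214 is 95.9% identical over 1974 bases to Ddx18, an RNA helicase of ribosome assembly. Gm9214 had 134, 84.2 and 92.8 counts in control and was at 0 in EtP, while Ddx18 rose from 717, 559 and 481 to 2308, 1947 and 2202 (log2 fold change 2.58, SE 0.23, adjusted p = 3.62e-05). Ddx18 was higher in all 3 EtP libraries and under each scaling. Hsp90ab1, a chaperone, was 0.57 higher (SE 0.19, adjusted p = 0.042) and 0.16 lower with library size alone, and its copy Gm13498 had 42, 35 and 24 counts in control. Gm10653 joins the leader to a copy of Rps2, a ribosomal protein of the small subunit, which was at -0.09 (SE 0.31, adjusted p = 0.844).

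For 6 further pairs the named gene did not pass the test and the member was at 0 in EtP. Gm1995 (99.5, 165 and 228 in control) resembles Rexo1, an exonuclease (0.46, SE 0.34, edgeR adjusted p = 0.335). Gm5612 resembles the autophagy gene Map1lc3b (0.76, SE 0.27, 0.0505), and Gm2027 the snoRNP factor Naf1 (0.17, SE 0.41, 0.787). Gm28052 overlaps Rnf8 on the same strand and also overlaps Cmtr1, an RNA cap methyltransferase (-0.05, SE 0.25, 0.895). It is 100% identical to Cmtr1 over 706 bases, so it is not a separate copy of that gene. Gm47184 resembles Kmt2d, a histone methyltransferase (0.37, SE 0.42, 0.528), and Gm36718 Elof1, an elongation factor (0.50, SE 0.24, 0.14). Of these 6, Map1lc3b kept its sign under each scaling and Cmtr1, Elof1, Kmt2d, Naf1 and Rexo1 did not. The processed pseudogene Gm4971 had 339, 209.58 and 344 counts in control and 0 in EtP. Reads shared by a member and the gene it resembles may have been assigned to either.

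**Figure D4:**
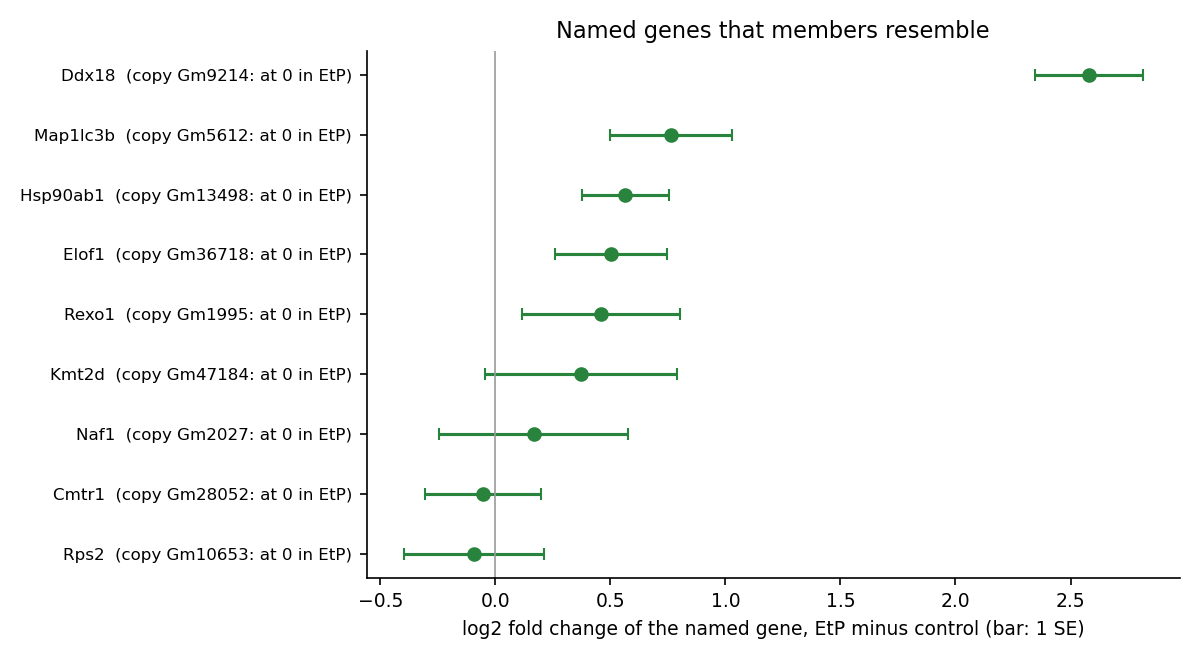
Log2 fold change (EtP minus control, bar 1 SE, edgeR) of 9 named genes that members resemble, each labelled with its member. Ddx18 is at 2.58 and the other 8 lie between -0.09 and 0.76. Gm28052 is labelled a copy but overlaps Cmtr1 itself.

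Other members of the set resemble genes of the 2-cell programme. Gm13043 (116, 432 and 325) is 97.1% identical to Pramef25, and Gm8953 (159, 125 and 151) and Gm49052 (75, 143 and 110.4) resemble Tcstv3. Gm45551 (27.1, 42 and 27.4) aligned to Eci2 as a transcript, and its translation matched Zscan4e at 96.3%. Pramef25 and Tcstv3 were lower in EtP (log2 fold changes -7.87 and -4.19, SE 0.38 and 0.31, adjusted p = 1.01e-06 and 8.52e-06).

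The 17 remaining members had similar loci only outside the named genes (8) or none (9). Similarity here meant at least 80% identity over 150 bases and 50% of the shorter transcript. Gm38947 on chromosome 7 had 930.3, 809 and 779 counts in control, and overlaps Gm45525 on the opposite strand. B020004C17Rik on chromosome 14, a noncoding RNA, had 302, 253 and 415. Gm42662 (211, 183 and 143) matches predicted loci such as Gm7942 (98.9% identity) on the opposite strand, and Gm7627 (68, 86 and 95.8) matches the glycolytic enzyme Gapdh in translation. Gm4810 (55.1, 39 and 77.9) matches the splicing factor Snw1, Gm18204 (98.3, 79.1 and 38.9) zinc finger genes, and Gm15319 (44.7, 36.2 and 24) ankyrin repeat genes. Gm7536 (70.5, 35.8 and 46.9) has many close copies, and with those near-identical to it the control level was 6.6 times the EtP level, the lowest such ratio. The 9 members with no similar transcript were Gm9, Gm21542 (133, 138 and 205), Gm48399, Gm47510, Gm16094, 1700012J15Rik, Gm9586, Gm44693 and Gm13068, and all except Gm44693 and Gm13068 had whole counts in every control. Gm9 on chromosome X, a coding model, had 62, 47 and 43 reads in control and 0 in EtP. Gm21542 has no similar transcript at this limit, yet its translation matches Gapdhs at 52.0% identity. In the same way Gm9586 matches Kin at 73.7% over 57 residues and Gm13068 matches Agbl2 at 96.8% over 31. The first 66 bases of Gm44693 match the shared unit at 98.5%.

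Near the limits of the rule, Gm9586 (20, 32 and 25) and 1700012J15Rik (45, 21 and 38) were just inside, and Gm42888 (34, 19 and 25), Gm11544 and Gm16332 were just outside with 0 in EtP. Gm5890, Gm4307 and Gm4305 were just above the EtP limit, with 0.60, 0.67 and 0.67 counts in replicate 2. Members differed from the other 1619 predicted loci in annotation: 46.5% had 1 exon against 31.5%, 25.6% were processed pseudogenes against 12.7%, and 10.5% had whole counts in every control against 33.5%. Median transcript length was 1244.5 and 1559 bases and median GC content 47.2% and 46.3%. Mean control levels ranged from 1.505 to 51.7 CPM (median 5.71). The highest control CPM was 1.81 times the lowest at the median, and 37 members differed by more than 2 times. Control replicate 1 was highest for 39 members, replicate 3 for 37 and replicate 2 for 10.

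Genes that lie next to the members were compared as a check of the surrounding chromosome. There were 80 named genes within 50 kb of a member that are neither predicted nor in the 2-cell list, and 52 of them were tested: 12 were lower and 6 higher (23.1% and 11.5%), and the median log2 fold change was -0.19, as over all genes. The higher genes were Snw1 (2.16, SE 0.21, adjusted p = 5.41e-05), Rnf8, a DNA-damage ubiquitin ligase (1.68, SE 0.21, 0.000241), Llgl1, a polarity gene (1.21, SE 0.22, 0.00265), Flii, an actin regulator (0.94, SE 0.30, 0.0393), Pik3cd, a PI3-kinase subunit (0.86, SE 0.29, 0.0444) and Asf1a, a histone chaperone (0.84, SE 0.21, 0.0129). Among the lower ones, Zscan4-ps2 (-8.06, SE 0.47, 3.01e-06) and BC080695 (-7.88, SE 0.62, 1.35e-05) belong to families of the 2-cell stage. Ubtfl1, a relative of a ribosomal RNA transcription factor (-3.74, SE 0.86, 0.00835), Dnajb9, an endoplasmic reticulum co-chaperone (-3.09, SE 0.25, 1.66e-05), Efhb (-0.95, SE 0.32, 0.0445) and Igsf23 (-0.91, SE 0.26, 0.0226) were also lower. The number of higher neighbours was 3 when control replicate 2 was left out; for EtP replicate 1 it was 3, with 7 lower, and leaving out EtP replicate 2 gave 6 lower. The nearest member to Snw1 is Gm5788 and to Dnajb9 is Gm2027.

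Of 40 genes of the 2-cell programme that are not members, 36 were lower and 2 higher in EtP, with a median log2 fold change of -7.46; the list was chosen with these data known and is not independent evidence. The 2 higher ones were D5Ertd577e (1.12) and E330014E10Rik (0.94, SE 0.20, adjusted p = 0.00611). Of 16 genes listed as regulators of the programme, edgeR called 6 higher and 4 lower (37.5% and 25.0%, against 12.5% and 18.1% of all genes). Their median log2 fold change was 0.13, and -0.63 with library size alone (3 higher and 6 lower). Duxf3, the Dux transcription factor, fell from 228, 299 and 457 counts to 9.13, 19.1 and 16.3 (-3.79, SE 0.42, adjusted p = 0.000137), and Obox3 (-1.86, SE 0.37, 0.00416), Kdm5b (-1.05, SE 0.25, 0.00966) and Dppa4 (-0.96, SE 0.30, 0.0347) were lower. Obox2 (2.72, SE 0.29, 0.000103), Nfya (1.62, SE 0.26, 0.00127), Obox1 (1.39, SE 0.29, 0.00532), Dppa3 (1.23, SE 0.26, 0.00597), Obox7 (1.08, SE 0.29, 0.0187) and Obox5 (0.88, SE 0.30, 0.049) were higher.

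Predicted loci outside the rule differed between groups in their share of counts by less than the spread, 9.64% ± 1.05 in control and 9.55% ± 0.398 in EtP (SD, n = 3 each; exact two-sided permutation test over libraries, p = 1.0, and the smallest p possible is 0.1). As a share of TPM they took 13.66% ± 0.579 in control and 13.03% ± 0.418 in EtP, a difference of -0.628 percentage points (exact p = 0.3), larger than either SD. Library totals were 11173295 to 14737152 expected counts. The 15 oocyte and early embryo markers, such as Zp3 and Gdf9, had at least 10 counts in every library and summed to 11949 to 18515 CPM in control and 34314 to 38687 CPM in EtP. Cumulus and granulosa markers summed to 21.2 to 44.1 and 17.4 to 20 CPM, with Amh and Ptx3 at 0, sperm markers to 62.2 to 134 and 107.6 to 136, blastocyst and later markers to 37.9 to 49.1 and 49.6 to 61.6, and blood markers to 1.6 to 4.3 and 0 to 0.2 CPM. The part of these levels in the results above was not tested.

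RefSeq promoter windows, 250 bases before to 50 after a start site (GRCm38.p6), matched 10 members in 11 windows. On both strands, the Dux motif was in 0 of 11 (0.03% of all 32851 windows), TAATCC, bound by OTX and OBOX factors, in 3 of 11 (7.06%), the NR5A motif TCAAGGNCA in 2 of 11 (1.62%) and the TATA box TATAAA in 2 of 11 (13.6%). Gm4513 and Gm4565, which share their sequence, held both TAATCC and TCAAGGNCA. Few members have a window, and a letter match is a description, not a binding site.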

How the data were processed

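Each library has 1 deposited table with expected counts, the authors' estimates of fragments per gene, and TPM, scaled by the authors for gene length and depth, per the file headers. Cutadapt 1.16 and STAR on mm10 are named in the submitters' processing notes; the counting program is not given in the sources used here. Expected counts were rounded to whole numbers for edgeR 4.0.16 (R 4.3.3; filterByExpr, TMM, robust quasi-likelihood, Benjamini-Hochberg at 0.05, group only; 14373 genes tested), after tests on simulated data. Alternatives were DESeq2 1.42.0, RLE and library-size scaling, other count filters, rule limits and distances, a replicate block and leaving out each library. Members and lists were chosen with earlier results of these data known. Sequence matches used BLAST 2.17.0 on GENCODE M21 transcripts. Translated matches compared whole transcripts in forward frames, untranslated parts included, and no proteins were compared. The leader was found in these members and its genes then counted, chosen after seeing the data. Text names the 12 members with the highest mean control CPM with all values, every coding member and up to 4 per cluster and biotype, threshold neighbours, and for neighbours and lists up to 6 called genes each way with a mean of at least 5 CPM. Counts of every library pair differed by more than sampling noise. A fold against 0 uses 3 counts over the EtP group. Some named genes that members resemble are not reported here.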

Additional observations from a re-analysis of the deposited data

How the results depend on the processing

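The rule found 51 members with a control minimum of 50, 129 with 10, 134 and 186 with EtP limits of 1.5 and 3.5, 84 with exactly 0 in EtP, and 94 to 116 when 1 library was left out. With library size alone, which lowered the median gene by 0.73 log2, 7617 genes were lower and 545 higher, 26 and 2 of the neighbours, and 0 of the 2-cell list and 3 of the leader genes outside the rule were higher. Leaving out 1 library gave 1096 to 2637 higher and 1659 to 2887 lower genes, and 3 to 8 higher and 6 to 13 lower neighbours; for the leader genes it gave 6 to 11 higher and 63 to 69 lower. Within 10 kb, 2 neighbours were higher and 2 lower, and within 200 kb 16 and 31. Added after seeing the data, a leader identity of 90% gave 57 lower and 7 higher, and genes with it in all transcripts 36 and 0. The share of predicted loci differed by -0.095 percentage points; without the 2-cell genes it was 0.025, and leaving out 1 library moved it between -0.612 and 0.433 (0.433 without control replicate 1 and 0.12 without EtP replicate 3), and as a share of TPM it was -0.628. Correlations of deviations between control and EtP libraries were 0.127, 0.003 and 0.273 for same-numbered replicates 1 to 3. For differently numbered ones they ran from -0.228 to 0.111. These few values do not settle whether the replicate numbers pair the libraries. A replicate block gave 2295 higher and 3022 lower genes, and 7 and 15 neighbours. It gave 3 and 37 of the 2-cell list and 10 and 72 leader genes. Depth limits a 0 to at most 3 counts over the group, counting error only.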
